A study of Mus musculus with 5 samples.

Results

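Mouse embryonic stem (ES) cells were compared with EHe, the undifferentiated hybrid made by fusing such ES cells with Hepa1-6 mouse hepatoma cells. The arrays titled ES and Ehe were taken by their titles, which gives 2 of the 5 arrays of the series, 1 for each condition. The ES cells are of the E14 line. By the study's methods they carried a lentiviral red fluorescent protein and a hygromycin resistance gene driven by an EF-1α promoter, while Hepa1-6 carried a green fluorescent protein and neomycin resistance. The 2 lines were fused with polyethylene glycol and double-resistant cells were selected. Hybrid colonies that looked like ES cells were picked singly, and by the methods only colonies of such shape survived continued passage. EHe is therefore a line from a colony picked for an ES-like shape. The labels do not say which colony was put on the array, nor whether the differentiated hybrids came from the same colony. By the labels, both cultures were kept without differentiation in GMEM with knock-out serum replacement, some fetal bovine serum and leukemia inhibitory factor at 1000 units/ml, so neither medium nor day separates them. The other 3 arrays, of the hybrid after 7 days (EHeD7) and 14 days (EHeD14) of differentiation and of Hepa1-6, are used only to show where a gene of interest was detected. No age or sex is given for any line.

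Fusion of a somatic or tumour cell with an ES cell joins both genomes in a single nucleus. In such hybrids the pluripotency network of the ES cell, built around Pou5f1 and Sox2, usually dominates and the tissue programme of the other parent is switched off. A hepatoma retains part of the hepatocyte programme, in which factors of the Hnf and Foxa families drive albumin, apolipoproteins and clotting factors. ES cells in leukemia inhibitory factor are mixed cultures in which a few cells drift towards primitive endoderm, epiblast or a two-cell-like state.

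Signals are given as scaled signal, the background-corrected signal of a probe divided by the 75th percentile of its array and multiplied by 1000. Differences are EHe minus ES on the log2 scale. Of 41174 probes, 62.1% were well above background on the ES array and 56.8% on the EHe array by the scanner software. The dimmest such probe lay at a scaled signal of 23.3 in ES and 34.9 in EHe. A probe was compared when it was well above background on at least 1 of the 2 arrays, which held for 26204 probes, 22779 of them on both. A signal that was not well above background was raised to the detection limit of its array where it lay below, and folds against such a signal are written as "at least". Genes are represented by their brightest probe, 14121 genes in all, and are called higher or lower when the fold computed in this way is over 3. With 1 array per condition there is no replicate error and no p-value. Repeated spots of a probe differed with a median SD of 0.10 (log2) in ES and 0.09 in EHe, which covers spot error only. The difference between the cell lines cannot be told apart from the difference between 2 cultures, RNA samples or hybridizations. In bulk samples a smaller number of expressing cells and less RNA per cell cannot be told apart either.

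All 9 ES-cell markers measured were detected in both lines, and none of 14 general pluripotency genes passed 3-fold. Of 15 naive pluripotency genes 1 was higher and 3 were lower, with Dppa3 lowest. Single genes with large differences were led by Hprt, Gna14 and Hes5 on the higher side and by Ly6a and Ly6c2 on the lower side. Among the gene lists, the medians of neural ectoderm and amino acid stress genes lay above that of all genes, and those of two-cell-like, endoderm and trophoblast genes below it. Whole chromosomes stood apart, with X-linked genes higher across the full length of the X chromosome. Hepatocyte genes were for the most part at or below their ES level.

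Of the 14121 genes, 367 were higher in EHe (2.6%) and 506 lower (3.58%). Over all 26204 probes, named or not, 760 were higher (2.9%) and 827 lower (3.16%). Without raising dim signals to the detection limit the probe counts were 920 higher (3.51%) and 1626 lower (6.21%), and the gene counts 422 (2.99%) and 880 (6.23%). The extra lower calls lay among the dimmest probes. In the dimmest of 4 equal bins of the probes 42.3% were not well above background in EHe against 9.43% in ES, the median difference was -0.34, and 1114 probes were over 3-fold lower against 463 higher as measured. In the same bin 315 were lower and 303 higher once dim signals were raised. In the other bins, from dim to bright, the medians were -0.04, 0.00 and -0.11. Of the probes detected on both arrays, 84.4% lay within 2-fold and 95.3% within 3-fold. The genes nearest to the threshold were Oas3 (3.004-fold) just inside and Jag2 (2.999-fold) just outside on the higher side. On the lower side Ift20 (3.0005-fold) stood inside and Ifna2 (2.999-fold) outside.

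**Figure D1:**
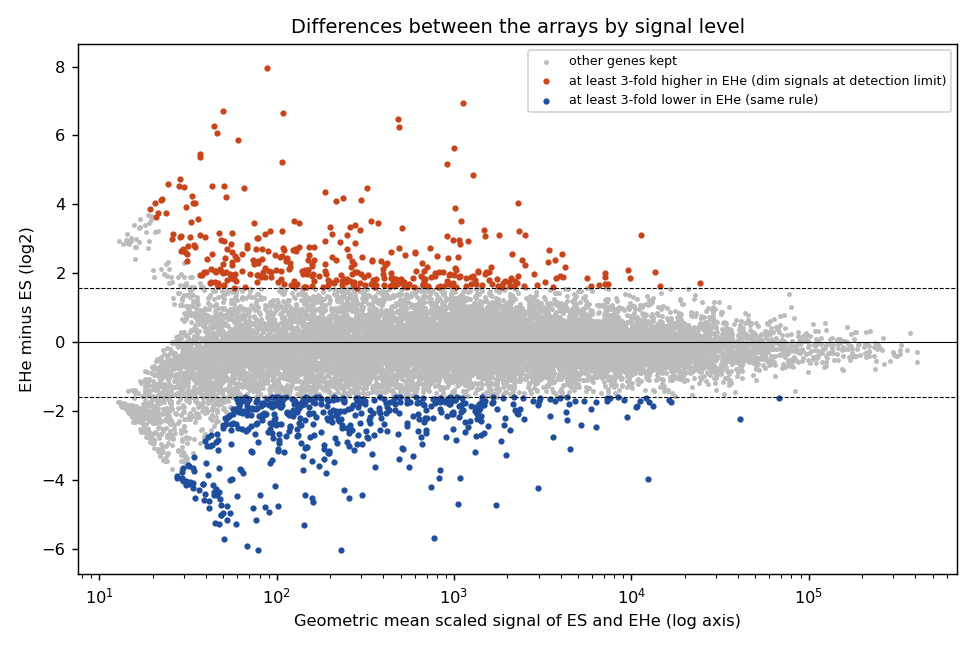
Difference between EHe and ES (log2, y axis) against the geometric mean scaled signal of both arrays (log x axis) for the 14121 genes compared. Each point is 1 gene, dashed lines mark 3-fold, orange points are the 367 genes called higher and blue points the 506 called lower. Grey points beyond the dashed lines at the left are dim on 1 array and do not pass once that signal is raised to the detection limit.

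Among the genes called higher, 110 had a further compared probe, and in 93 of these every further probe lay in the same direction, in 61 beyond 3-fold as measured. Among the genes called lower these counts were 127, 118 and 73.

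The largest fold by this rule was in Hprt, the purine salvage enzyme, which is deleted in some E14 sublines. Its scaled signal was 101 in ES and 12445 in EHe, a 124-fold difference. It was also 13716 in Hepa1-6 and 17412 and 18041 in EHeD7 and EHeD14, so ES was the low array among 5. The labels do not name the subline of E14. Hprt, Gna14 and Hes5 each rest on 1 compared probe. Gna14, a Gq-class G protein subunit, measured 51.3 in ES and 4598 in EHe (89.5-fold). In contrast to Hprt it was only 136 and 93.6 in the differentiated hybrids and was not well above background in Hepa1-6. Hes5, a basic helix-loop-helix repressor downstream of Notch, measured 56.4 in ES and 4294 in EHe (76.1-fold), and it measured 4522 and 4380.4 in the differentiated hybrids.

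To show how unlike the start regions of the leading genes were, the 250 bases before the annotated start are given for the first 3 genes of each direction that have an entry in the RefSeq promoter table (GRCm38.p6). They run 5′ to 3′ in the direction of the gene, with CpG dinucleotides in capitals. On the higher side these are Hprt at chrX:52987828-52988077 (plus strand), Gna14 at chr19:16435417-16435666 (plus strand) and Hes5 at chr4:154960673-154960922 (plus strand).
Hprt: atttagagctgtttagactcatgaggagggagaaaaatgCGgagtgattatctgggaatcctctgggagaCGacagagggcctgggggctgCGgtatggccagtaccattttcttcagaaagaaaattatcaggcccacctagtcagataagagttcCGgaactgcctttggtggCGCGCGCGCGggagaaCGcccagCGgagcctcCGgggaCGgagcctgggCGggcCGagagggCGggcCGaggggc
Gna14: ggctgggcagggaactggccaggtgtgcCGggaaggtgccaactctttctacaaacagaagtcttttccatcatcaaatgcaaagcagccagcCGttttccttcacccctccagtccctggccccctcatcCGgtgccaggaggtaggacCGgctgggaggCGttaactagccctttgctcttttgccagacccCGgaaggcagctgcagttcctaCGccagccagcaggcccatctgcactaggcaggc
Hes5: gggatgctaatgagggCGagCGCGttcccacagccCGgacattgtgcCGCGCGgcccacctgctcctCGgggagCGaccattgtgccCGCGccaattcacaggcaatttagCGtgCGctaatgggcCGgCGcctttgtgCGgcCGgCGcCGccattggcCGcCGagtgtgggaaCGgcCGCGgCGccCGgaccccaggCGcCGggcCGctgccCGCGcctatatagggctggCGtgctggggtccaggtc
On the lower side they are Ly6c2 at chr15:75111972-75112221 (minus strand), Pla2g1b at chr5:115465892-115466141 (plus strand) and 4930550L24Rik at chrX:58911211-58911460 (plus strand).
Ly6c2: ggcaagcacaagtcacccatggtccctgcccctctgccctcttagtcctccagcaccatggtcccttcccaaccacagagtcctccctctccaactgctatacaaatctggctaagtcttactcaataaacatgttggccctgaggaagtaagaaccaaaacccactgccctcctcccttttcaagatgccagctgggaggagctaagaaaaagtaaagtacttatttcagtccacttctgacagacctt
Pla2g1b: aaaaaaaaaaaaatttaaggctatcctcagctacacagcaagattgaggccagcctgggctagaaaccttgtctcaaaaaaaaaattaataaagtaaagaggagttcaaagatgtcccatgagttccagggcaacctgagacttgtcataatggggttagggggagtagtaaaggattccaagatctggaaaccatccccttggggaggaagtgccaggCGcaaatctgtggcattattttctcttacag
4930550L24Rik: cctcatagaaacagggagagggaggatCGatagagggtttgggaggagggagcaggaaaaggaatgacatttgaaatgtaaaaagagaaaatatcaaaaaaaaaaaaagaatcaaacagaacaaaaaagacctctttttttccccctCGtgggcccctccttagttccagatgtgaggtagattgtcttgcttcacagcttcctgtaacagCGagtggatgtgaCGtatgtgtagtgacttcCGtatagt
These windows hold 17 CpGs for Hprt, 7 for Gna14 and 32 for Hes5, against 0 for Ly6c2, 1 for Pla2g1b and 5 for 4930550L24Rik.

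Of the other leading genes, Cacna1g, a T-type calcium channel, measured 5.58 in ES (not well above background) and 1383 in EHe (at least 59.3-fold), and Kcnmb1, an accessory subunit of the BK potassium channel, 5.66 in ES (not well above background) and 379 in EHe (at least 16.2-fold). Akap6, an anchor of protein kinase A, measured 4.87 in ES (not well above background) and 514 in EHe (at least 22.01-fold). Tspoap1, which binds calcium channels and synaptic scaffolds, stood 28.9-fold higher at 6911.

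Among transcription regulators, Zeb2, a repressor of E-cadherin known from epithelial-mesenchymal transition, measured 10.8 in ES (not well above background) and 1096 in EHe (at least 47.0-fold). Its further probe lay in the same direction. Pax6, a master regulator of eye and neural fate, measured 41.4 in ES and 858 in EHe (20.7-fold), and was not well above background on the other 3 arrays. Cited1, an X-linked coregulator expressed in trophoblast, measured 567 in ES and 9283 in EHe (16.4-fold), and it was higher still in the differentiated hybrids at 27768 and 45866. Trib2, a pseudokinase, stood 17.0-fold higher.

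The genes left among the 20 highest are more mixed. H2-Oa, a subunit of the MHC class II chaperone DO, measured 152 in ES and 5517 in EHe (36.4-fold), and Frem2, a basement membrane protein, 68.6 in ES and 1533 in EHe (22.3-fold). Crisp1, a secreted protein best known from the epididymis, measured 17.7 in ES (not well above background) and 656 in EHe (at least 28.1-fold). It was 12677 in Hepa1-6 and not well above background in the differentiated hybrids. Erich3, at 462, was detected in EHe and on none of the other 4 arrays, and the same held for Kcnmb1. Tbc1d9, Unc93a, Reg2 and Ankrd44 differed by 18.05-fold, 17.4-fold, at least 16.7-fold and 14.9-fold.

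On the lower side the leading genes were 3 members of the Ly6 family of small surface proteins anchored by a lipid. Ly6a (Sca-1) measured 1861 in ES and 28.5 in EHe (not well above background, at least 53.3-fold), Ly6c2 measured 5559.7 in ES and 108 in EHe (51.6-fold) and Ly6g6e 8875 in ES and 338 in EHe (26.3-fold). Ly6a and Ly6c2 were brighter in Hepa1-6 than in ES, at 19223 and 66667, so both were lower in the hybrid than in either parent. Of 13 Ly6 genes compared, a family singled out after these values were seen, 5 were lower and 1, Ly6m, was higher. Probes of close relatives in this family may share target RNA.

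The same position below both parents was held by several other genes among the 20 lowest. Ddr2, a collagen-binding receptor kinase, measured 757 in ES and 33.2 in EHe (not well above background, at least 21.7-fold) against 9391 in Hepa1-6. Ankrd1, a target of the YAP coactivators, measured 526 in ES and 8.74 in EHe (not well above background, at least 15.1-fold) against 59013 in Hepa1-6. Gadd45g, a stress-inducible gene that is also raised by leukemia inhibitory factor, measured 4238 in ES and 277 in EHe (15.3-fold) against 16670.5. Dhrs3, which reduces retinaldehyde, measured 1219 in ES and 53.3 in EHe (22.9-fold) against 3983, and the adhesion protein Cd99 measured 3228 in ES and 211 in EHe (15.3-fold) against 11053. Meis2, a homeobox factor, Gpat3, an enzyme of triglyceride synthesis, and Plac8 differed by 19.7-fold, 21.8-fold and at least 19.07-fold. Their signals in Hepa1-6 were 1392, 1304 and 4030.3.

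Khdc3, part of the subcortical maternal complex of the oocyte, was the brightest of these 20 genes and measured 49380.5 in ES and 3146 in EHe (15.7-fold). It was not well above background in Hepa1-6. Tgfbi, a secreted matrix protein, measured 12979 in ES and 689 in EHe (18.8-fold), and Ccno, an atypical cyclin needed by multiciliated cells, 3191 in ES and 172 in EHe (18.5-fold). Pla2g1b, the pancreatic phospholipase A2, and Sctr, the secretin receptor, differed by 25.6-fold and at least 18.1-fold. Fhl2, a LIM-domain protein, was 528 in ES and 19.5 in EHe (not well above background, at least 15.1-fold) but 1609.6 in EHeD7. Fam169b and Timd2 differed by at least 22.9-fold and at least 14.3-fold. The transcript 4930550L24Rik differed by at least 25.6-fold on its brightest probe and by 1.81-fold on the other, both lower in EHe.

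**Figure D2:**
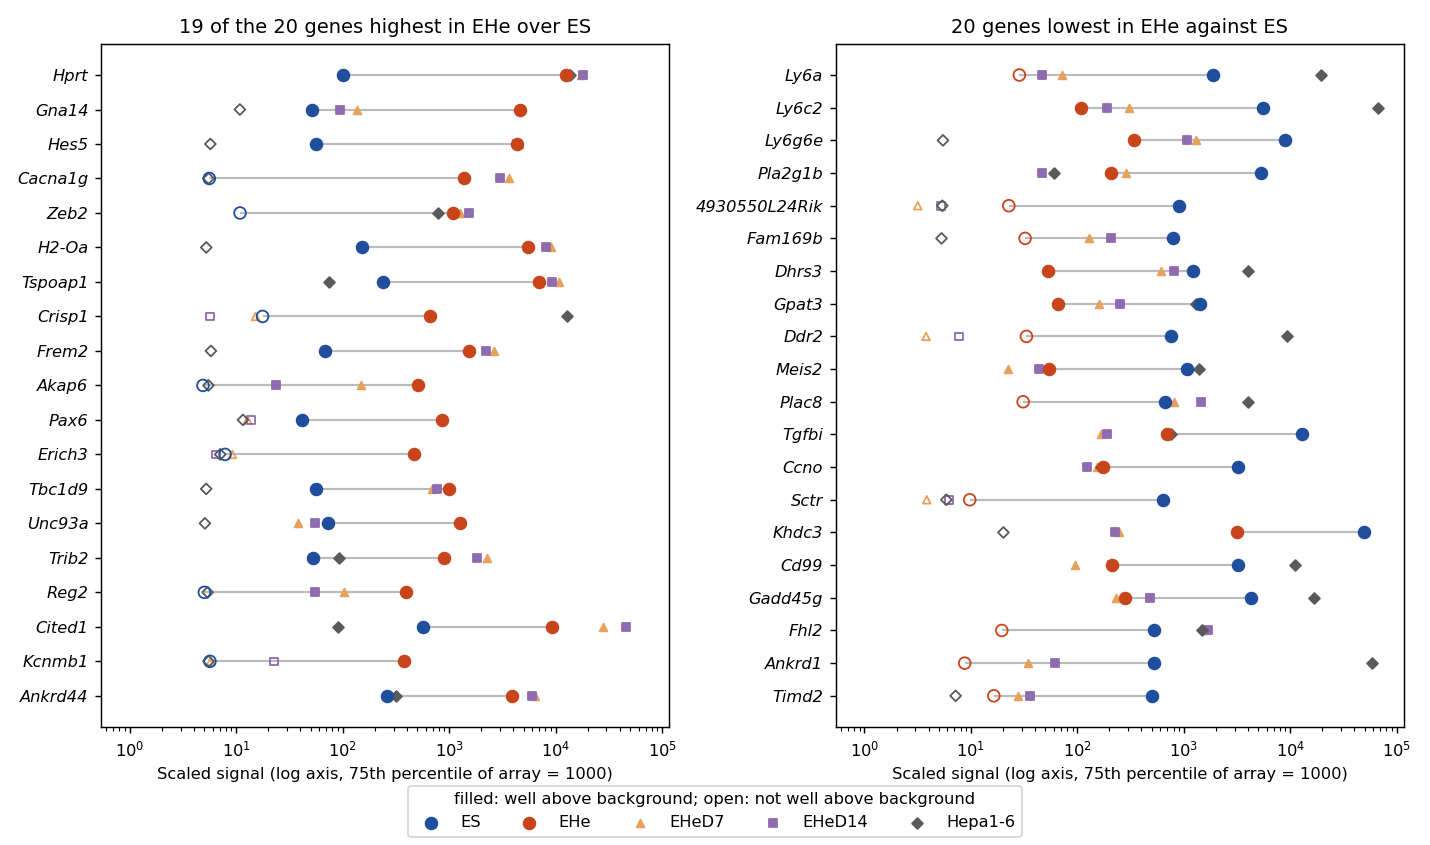
Scaled signal (log x axis) of 19 of the 20 genes highest (left) and the 20 lowest (right) in EHe against ES on all 5 arrays, 1 array per condition. Filled symbols are well above background and open ones are not, and grey lines join ES and EHe. Hprt is bright on every array but ES, while Ly6a, Ly6c2 and Ankrd1 are brightest in Hepa1-6.

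Where the called genes were detected elsewhere was read from the other arrays. Of the 367 higher genes 57.5% were well above background in Hepa1-6, against 80.5% of all genes compared. In EHeD7 and EHeD14 the shares were 91.0% and 88.8% of the higher genes, against 96.8% and 94.8% of all genes compared. Of the 85 that were not well above background in ES, 32.9% were detected in Hepa1-6, 69.4% in EHeD7 and 68.2% in EHeD14. Of the 506 lower genes 54.0% were detected in Hepa1-6, 89.9% in EHeD7 and 87.7% in EHeD14. Of the 145 that were not well above background in EHe, 32.4% were detected in Hepa1-6, 69.0% in EHeD7 and 64.1% in EHeD14. Called genes were dimmer than all genes, as given with the promoter windows below, and the part of signal level in these shares was not tested.

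Gene lists are described by their members that were compared. This leaves out members with no named probe and members at background on both arrays. A member detected in ES alone could hardly be called higher, and a member detected in EHe alone could hardly be called lower. The shares to set beside the count of each list are those over all genes, 2.6% higher and 3.58% lower. In this line, picked for an ES-like shape, pluripotency genes stood near their ES level. Pou5f1, the central factor of the network, measured 13424 in ES and 16476 in EHe, and its partner Sox2 10257 in ES and 11089 in EHe. Of 14 general pluripotency genes compared none passed 3-fold, their median was 0.30 and 9 lay above 0, beside a median of -0.16 over all genes. The widest differences among them were in Utf1, a chromatin-bound ES-cell factor, at -1.19 and in Dppa4 at 1.03. Nanog had no named probe and was not analysed here.

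Of 15 naive pluripotency genes 1 was higher and 3 lower, with a median of -0.10 that changed sign between scalings (-0.16 to 0.03). Zfp42 (Rex1) measured 51620.1 in ES and 51332 in EHe, Esrrb 17398 in ES and 16192 in EHe and Klf4 45843 in ES and 49849 in EHe, each within 1.09-fold. Dppa3 (Stella), a maternal factor that guards DNA methylation, measured 2857 in ES and 469 in EHe (6.09-fold). Tbx3 measured 29389.6 in ES and 9151 in EHe (3.21-fold) and Tdh, the threonine dehydrogenase of mouse ES cells, 118635 in ES and 38872 in EHe (3.05-fold). Both of these lay under 3-fold after quantile normalization, at -1.52 and -1.49 on the log2 scale. Tcl1, an AKT coactivator, was higher at 2977 in ES and 10739.9 in EHe (3.61-fold). X-linked Nr0b1 came close to the threshold on the higher side (2.91-fold), and Nr5a2 and Tfcp2l1 were 2.48-fold and 2.00-fold lower.

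Most hepatocyte genes were at or below their ES level in the hybrid. Of 40 hepatocyte genes 36 were on the array and 21 were compared, of which 20 were detected in ES, 12 in EHe and 18 in Hepa1-6. Their median difference was -0.62, with 4 above 0 and 17 below, and 1 gene was called higher and 2 lower. Alb and Afp, at 66693 and 109246 in Hepa1-6, measured 7.97 and 7.98 in EHe, where neither was well above background. The 11 hepatocyte markers measured summed to 2930.1 in ES, 916 in EHe and 202869 in Hepa1-6. Ahsg, a plasma glycoprotein, made up most of the sum in ES and EHe and was not well above background in Hepa1-6. It was among the lower genes, at 2689.9 in ES and 826 in EHe (3.26-fold), and under 3-fold after median centring (-1.58 on the log2 scale).

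Hnf4a, the nuclear receptor that organises hepatocyte transcription, was the gene called higher, but its 2 compared probes went opposite ways. Its brightest probe measured 22.5 in ES (not well above background) and 138 in EHe (at least 5.91-fold) and 1917 in Hepa1-6. The other probe measured 76.0 in ES and 22.1 in EHe, 3.44-fold lower as measured. The difference was 0.42 on the log2 scale when the gene's compared probes were averaged and 1.00 after normexp background correction, both under 3-fold. Foxa2, a pioneer factor of endoderm and liver, was 139 in ES and 8.21 in EHe (not well above background, at least 3.97-fold). Apoe, bright on every array, measured 55445 in ES and 113523 in EHe (2.05-fold), and prothrombin, F2, was 2.78-fold higher. Neither passed the threshold.

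Lineage genes separated into groups. Of 19 endoderm genes compared 8 were lower and none higher, and all 19 lay below 0, with a median of -1.21. All 19 were well above background in ES and 16 in EHe, of 20 on the array. Gata6, the factor that starts primitive endoderm, measured 3015 in ES and 233 in EHe (12.9-fold) and Sox17 416 in ES and 64.0 in EHe (6.501-fold). Pdgfra, the surface marker of the same cells, measured 216 in ES and 13.7 in EHe (not well above background, at least 6.20-fold). Genes of the mature visceral and parietal layers followed the same direction. The endocytic proteins Dab2 and Cubn differed by 6.43-fold and 7.83-fold, the proteoglycan Srgn by 6.47-fold, and the basement membrane collagens Col4a1 and Col4a2 by 3.88-fold and 3.42-fold. With all compared probes averaged Col4a1 and Col4a2 were at -1.58 and -1.42 on the log2 scale, under 3-fold.

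Trophoblast genes were lower in 5 of 15 and higher in 1, with a median of -1.01. The 5 were the simple epithelial keratins Krt7, Krt8 and Krt18, the X-linked homeobox gene Esx1 and the imprinted gene Peg10. Krt8 measured 3134 in ES and 639 in EHe (4.90-fold) and Krt18 2577 in ES and 516 in EHe (4.997-fold), while both were brighter in EHeD7, at 32519 and 36067, and brighter still in Hepa1-6. Krt7 and Esx1 differed by 8.41-fold and 6.46-fold. The gene that was higher was Cited1, described above. Of 24 keratins compared, a family singled out after its values were seen, 5 were lower and 1 higher.

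Neural ectoderm was the lineage list with the highest median, 1.01, with 4 of 12 genes higher and none lower. All 12 were well above background in EHe and 10 in ES, so the rest entered through EHe alone and could hardly be called lower. Hes5 and Pax6 led it. Ncam1, the neural cell adhesion molecule, measured 878 in ES and 5173 in EHe (5.90-fold), with 0.83 on the log2 scale over the mean of its compared probes. Those probes went both ways. One measured 467 in ES and 197 in EHe and another 63.4 and 26.6, while the rest were higher in EHe. Zic1, a zinc finger factor of the dorsal neural tube, measured 8.68 in ES (not well above background) and 77.0 in EHe (at least 3.30-fold). Its difference was 1.23 on the log2 scale after normexp correction.

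Mesoderm and streak genes were lower in 1 of 12, Hand1 (8.52-fold), and higher in none, with a median of -0.69. Only 6 of these 12 were well above background in EHe, against 12 in ES, so the others could hardly be called higher. Of 13 primed epiblast genes 2 were lower. They were Otx2, which drives exit from the naive state, at 4964 in ES and 685 in EHe (7.24-fold), and the claudin Cldn6 (4.83-fold). Genes of the two-cell-like state had a median of -1.22, with all 10 below 0 and 3 called lower. Those were Pramel7 (at least 13.2-fold), Tcstv3 (at least 3.47-fold) and Usp17la (3.36-fold). Only 5 of the 10 were well above background in EHe, against 10 in ES, and such genes belong to repeated families whose probes may share target RNA.

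Of 31 germline and meiosis genes 3 were lower and none higher, with a median of -0.47. Mael, a piRNA pathway protein, was the brightest of the 3 at 11550.5 in ES and 3494 in EHe (3.31-fold). The others were Spo11, which makes the breaks of meiosis, and Tex101, lower by at least 3.84-fold and 3.05-fold.

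Imprinted genes went both ways, with 5 higher and 3 lower of 31 and a median of -0.23. Mest, expressed from the paternal allele, measured 5171 in ES and 18743 in EHe (3.62-fold) and Meg3, the maternal noncoding RNA of chromosome 12, 13323 in ES and 44117 in EHe (3.31-fold). Kcnq1ot1, a paternal noncoding RNA, measured 222 in ES and 1271 in EHe (5.73-fold). Within the same region of chromosome 7, Phlda2, expressed from the maternal allele, was lower at 13208 in ES and 4054 in EHe (3.26-fold), and so was the growth factor Igf2 at 366 in ES and 70.1 in EHe (5.22-fold). Plagl1 and Zdbf2 were 3.20-fold and 3.11-fold higher and Peg10 at least 4.57-fold lower. Meg3, Mest and Plagl1 were above their EHe level in EHeD7, at 59775, 23939 and 5553, and none of the 3 was detected in Hepa1-6. Enzymes of DNA methylation and TET (16 genes), Polycomb proteins (27) and p53 targets (23) held no gene past 3-fold.

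Among metabolic and stress genes, targets of ATF4, the factor that answers amino acid shortage and endoplasmic reticulum stress, were higher as a group. Of 25 compared 5 were higher and none lower, 24 lay above 0, and the median was 0.71. Nupr1, a small stress-inducible chromatin protein, measured 3876 in ES and 33531 in EHe (8.65-fold), and Gdf15, a secreted stress signal, 1155 in ES and 5469 in EHe (4.74-fold). Chac1, which degrades glutathione, measured 4622 in ES and 19749.5 in EHe (4.27-fold). Slc7a3, an X-linked transporter of cationic amino acids, measured 6699.6 in ES and 27509 in EHe (4.11-fold), and the lipoprotein receptor Vldlr 82.8 in ES and 623 in EHe (7.52-fold). Nupr1, Gdf15 and Chac1 were below their ES level in EHeD7, at 991, 756 and 1507, and all 3 were high in Hepa1-6.

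Of 26 genes of cholesterol and fatty acid synthesis 1 was higher and none lower, with a median of 0.20. Metallothionein Mt1 was the 1 gene called of 19 redox genes (3.08-fold higher, list median 0.36), and Ndrg1 the 1 of 31 glycolysis and hypoxia genes (4.12-fold higher). Over all genes 2.6% were called higher, so 1 gene in lists of this size is no result about the list.

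Genes of the actin cytoskeleton and YAP targets were lower in 6 of 28 and higher in none, with a median of -0.45. Beside Ankrd1, these were Ccn2, a secreted matricellular protein, at 2335 in ES and 349 in EHe (6.68-fold), the actin-binding calponin Cnn2 (5.42-fold), the myosin light chain Myl9 (5.14-fold), and the annexins Anxa3 (8.84-fold) and Anxa1 (3.87-fold). Each of Ccn2, Cnn2, Myl9, Anxa1 and Anxa3 was higher in EHeD7 than in ES. Of 9 fibroblast markers on the array 4 were detected in ES and 5 in EHe, with summed signals of 1578 and 1089. Lum and Dcn were not above background in either. Thy1 made up the largest part, at 627 in ES and 748 in EHe. The other detected markers went both ways. Col1a1, Col1a2 and Pdgfrb were lower in EHe, Pdgfrb at 443 in ES and 45.1 in EHe. Twist1 was 13.2 in ES (not well above background) and 89.7 in EHe, and at 0.53 on the log2 scale after normexp correction.

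The signalling lists held few called genes, beside 2.6% higher and 3.58% lower over all genes. Myc was the 1 gene lower of 25 immediate early and ERK targets, at 1257 in ES and 235 in EHe (5.34-fold). Gadd45g, given above, was the 1 gene called of 16 LIF and STAT3 genes. Of 22 Wnt pathway genes 2 were lower, the secreted inhibitor Dkk1 at 279 in ES and 7.29 in EHe (not well above background, at least 7.99-fold) and the nuclear effector Tcf7l2 (3.56-fold). Of 24 genes of the Nodal, TGF-beta and BMP pathways 2 were higher and 1 lower. Id3, a direct BMP target, was 5.24-fold higher, while Id4 was 3.49-fold lower. Id1 and Id2 were also lower in EHe, within 3-fold. Their compared probes were at -0.79 and -0.85 for Id1 and at -0.57 and -0.50 for Id2 on the log2 scale. Of 25 BCL2 family and caspase genes 1 was higher and 1 lower, the latter the BH3-only protein Bmf. It measured 4175 in ES and 911 in EHe (4.58-fold). Of 16 genes of MHC class I and the immunoproteasome 2 were lower and none higher, with a median of -0.18 and 7 above 0. The 2 were the immunoproteasome subunits Psmb8 and Psmb10, at least 6.14-fold and 3.07-fold lower. Psmb10 was under 3-fold after quantile normalization (-1.51 on the log2 scale). None of 31 ribosomal protein genes and 1 of 30 replication and mitosis genes, Cdk6 (4.18-fold lower), passed 3-fold.

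Some of these calls did not pass under another processing. After normexp background correction 11 further genes called above were under 3-fold, namely Col4a2, Peg10, Plagl1, Zdbf2, Anxa1, Id4, Tcf7l2, Tcstv3, Usp17la, Spo11 and Tex101. Their differences then lay between 0.90 and 1.54 in size on the log2 scale, each in the same direction as before. Averaged over their compared probes Meg3 and Plagl1 were at 1.54 and 0.69, and after median centring Phlda2 and Tex101 were at -1.58 and -1.49.

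**Figure D3:**
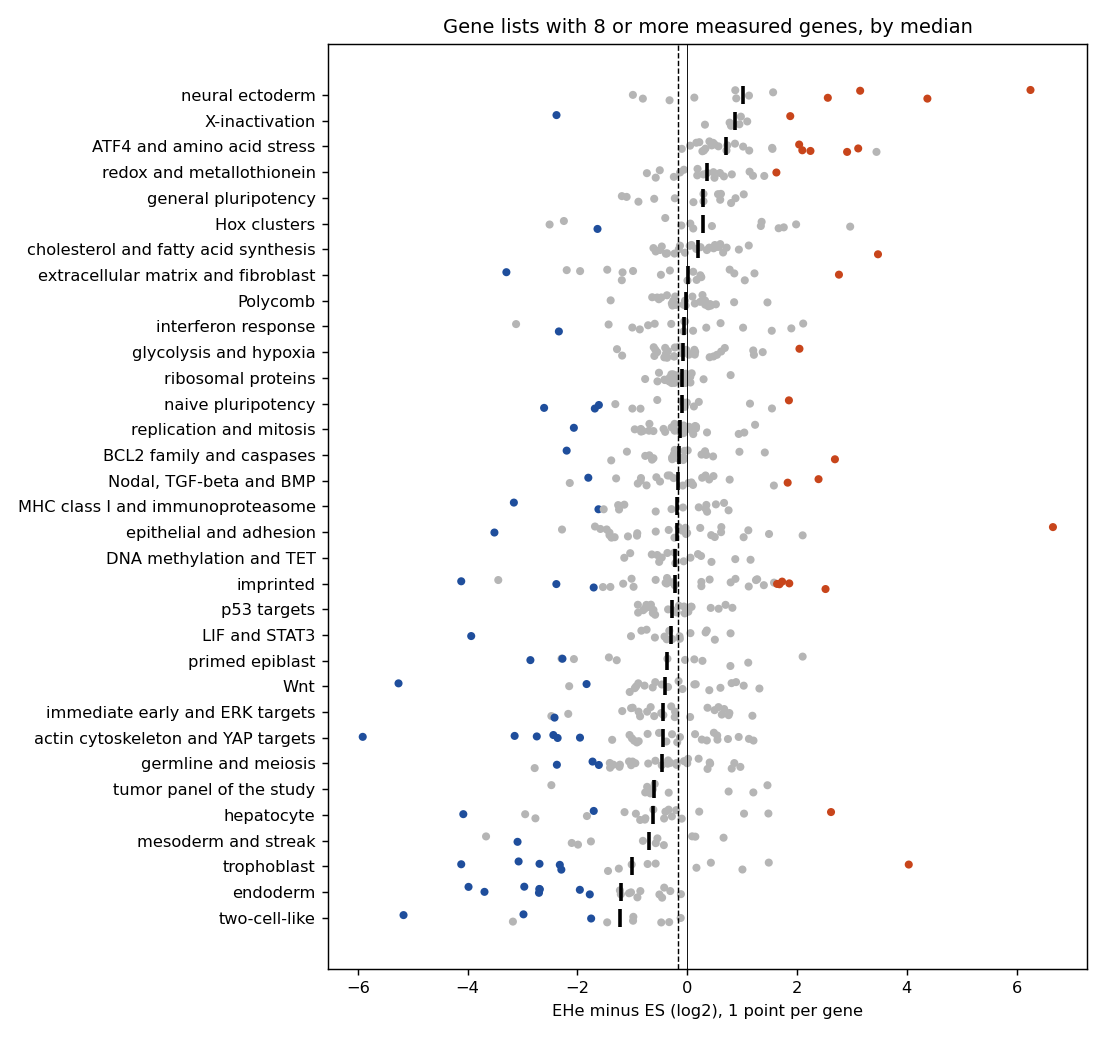
Difference between EHe and ES (log2, x axis) of each compared gene in the lists with 8 or more such genes, ordered by the list's median (black bar). Orange points are genes called higher and blue points genes called lower, and the dashed line is the median of all 14121 genes (-0.16). Endoderm and two-cell-like genes all lie below 0 and 24 of 25 ATF4 genes above it.

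Differences between the arrays also ran along whole chromosomes. Genes were placed by the RefSeq annotation and their differences summarised per chromosome. The median over all 14121 genes was -0.16. X-linked genes had a median of 0.60 over 473 genes, with 74.4% above 0 against 39.0% of autosomal genes. Chromosomes 12 and 8 followed at 0.31 and 0.29. At the other end chromosome 1 had a median of -0.53, chromosome 11 of -0.48 and chromosome 14 of -0.38.

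The shifts on X and on chromosomes 1 and 8 were seen along the whole chromosome. When the genes of a chromosome were cut into 4 equal parts by their order, the medians on X were 0.68, 0.52, 0.66 and 0.59. On chromosome 8 they were 0.27, 0.35, 0.26 and 0.29, and on chromosome 1 they were -0.49, -0.61, -0.62 and -0.45. Chromosomes 12 and 11 varied more along their length, from 0.14 to 0.47 and from -0.59 to -0.20, and the first part of chromosome 11 (-0.20) lay near the median of all genes. Restricted to genes detected on both arrays the medians were 0.67 for X, 0.33 for chromosome 12, 0.32 for chromosome 8 and -0.49 for chromosome 1. X stayed the highest and chromosomes 1 and 11 the lowest under quantile normalization, median centring, normexp correction and the mean of a gene's probes.

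The same medians against ES in the other arrays share the ES array and are therefore no independent measurement. For X they were 0.55 in EHeD7, 0.46 in EHeD14 and -0.63 in Hepa1-6, beside medians over all genes of -0.24, -0.21 and -0.57. For chromosome 8 they were 0.18, 0.18 and -0.58, and for chromosome 1 they were -0.53, -0.49 and -0.50. No karyotype or DNA measurement is among these arrays. The study's chromosome spreads showed nearly all hybrid lines to be near-tetraploid, but its text gives no number for single chromosomes. The part of chromosome number in the shifts was not tested.

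**Figure D4:**
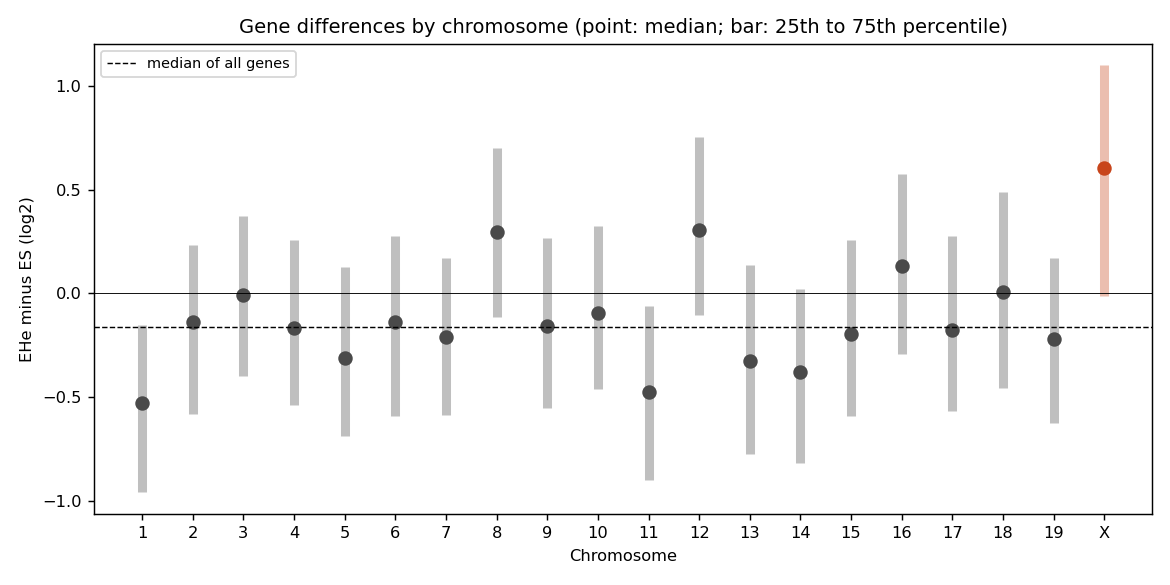
Difference between EHe and ES (log2, y axis) by chromosome, with the median of the compared genes as a point and the 25th to 75th percentile as a bar. The dashed line is the median of all genes (-0.16). X lies highest at 0.60, with chromosomes 12 and 8 next, and chromosomes 1 and 11 lie lowest.

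Of the 473 X-linked genes 45 (9.51%) were called higher and 13 (2.75%) lower, against 2.35% and 3.61% of the autosomal genes. Beside Hprt and Cited1 these included Hmgn5, a nucleosome-binding protein, at 759.6 in ES and 7064 in EHe (9.30-fold). Smarca1, an ISWI remodeller, measured 449 in ES and 2468 in EHe (5.50-fold). Neuronal and muscle genes were among them, including Dmd (dystrophin, 3.31-fold), Fmr1 (3.22-fold) and the microtubule protein Dcx (at least 3.25-fold), as were Stag2 of cohesin (3.63-fold), the DNA polymerase subunit Pola1 (3.75-fold) and the glypican Gpc3 (3.58-fold). The lower X-linked genes included Fthl17e, a ferritin-like gene, at 2911 in ES and 627 in EHe (4.64-fold), Asb9 (at least 10.6-fold) and the clotting factor F9 (4.12-fold).

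Of 8 X-inactivation and dosage genes compared 7 lay above 0, with a median of 0.87. Xist, the RNA that coats an inactive X, was on the array and not well above background in ES or EHe. Its antisense partner Tsix was higher at 211 in ES and 776 in EHe (3.67-fold) and the noncoding Ftx lower at 228 in ES and 43.8 in EHe (5.21-fold). Tsix was at 1.53 on the log2 scale after normexp correction, under 3-fold. Rlim, the ubiquitin ligase that promotes Xist, and Usp9x were 1.93-fold and 2.13-fold higher. Of 10 Y-linked genes on the array 4 were compared, with 2 above 0 and 2 below. The others were not well above background in ES or EHe. The 2 above 0, Eif2s3y and Ddx3y, were 8.83-fold and 7.03-fold higher in EHe, at 608 and 179.8. Neither was well above background in EHeD7, EHeD14 or Hepa1-6. Rbmy was at -2.65 on the log2 scale as measured but was not called lower once dim signals were raised. After normexp correction Ddx3y was at 1.32 on the log2 scale, under 3-fold.

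What the start regions of the called genes share was read from the RefSeq promoter table (GRCm38.p6), in windows of 250 bases before and 50 after the annotated start. An entry was found for 11291 of the 14121 genes, among them 276 of the 367 higher and 386 of the 506 lower. Windows were described by the ratio of observed to expected CpG dinucleotides, which is high in the CpG islands that mark widely used promoters. The median ratio was 0.73 over all genes, 0.63 for higher and 0.49 for lower genes. A ratio over 0.6 was reached by 65.8% of all windows, 55.4% of those of higher genes and 41.2% of those of lower genes. The windows of the printed genes span this range, from 0 for Ly6c2 and 0.28 for Gna14 to 0.84 for Hprt and 1.04 for Hes5. Called genes were also dimmer, with a median scaled signal of 228 for the higher and 174 for the lower against 1144 for all, and the part of signal level in the CpG difference was not tested.

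Short motifs were searched on both strands of the same windows. The ETS motif ACTTCCGG was present in 7.46% of all windows, in 1.81% of those of higher genes and in 2.59% of those of lower genes. The GC box GGGCGG was present in 60.5%, 54.0% and 45.6%. Both hold a CpG, so these shares and the CpG ratio overlap. The TATA box TATAAA went the other way, with 8.71% of all windows, 12.3% of higher and 12.2% of lower genes. The AP-1 motif TGACTCA was present in 3.58%, 4.71% and 3.11%. A match says only that the letters are in the window.

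**Figure D5:**
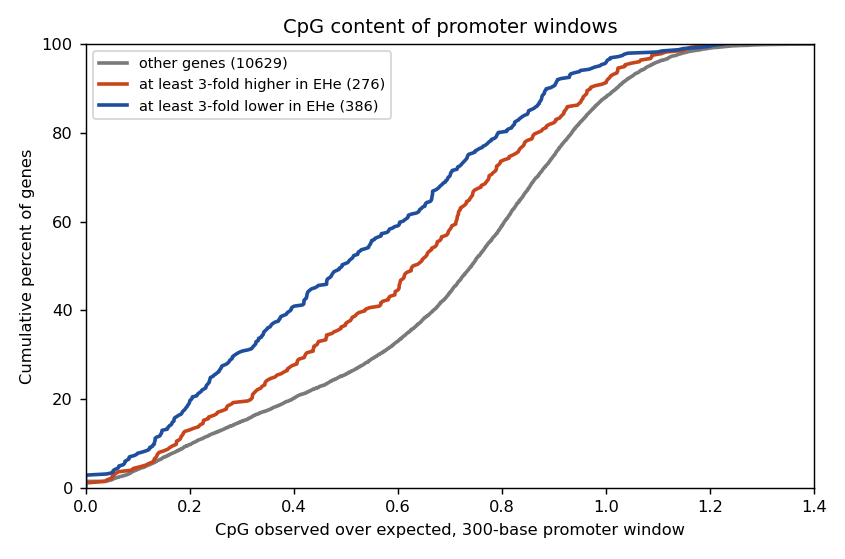
Cumulative percent of genes (y axis) by the ratio of observed to expected CpG in the 300-base promoter window (x axis), for higher genes (276), lower genes (386) and all other genes with a window (10629). The curve of the lower genes lies leftmost, with a median of 0.49, and that of the higher genes between it and the other genes.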

How the data were processed

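RNA from each condition was labelled with 1 dye and hybridized to an Agilent mouse oligo array, 1 array per condition. The labels give Cy3 and the paper's methods Cy5. The authors deposited the scanner tables of Feature Extraction 10.7.3.1, per the labels, with background-corrected processed signals as intensities and 0 or 1 calls for outlier and well-above-background spots. The deposited series table held the same values, with no normalization across arrays. After removal of control spots and of outlier spots (120 for ES and 73 for EHe), the 75th percentile of an array was subtracted from its log2 signals, and spots of a probe were averaged. No spot was saturated. Through RefSeq accessions (GRCm38.p6), 26888 of 41174 probes were named. The genes named are the 20 largest differences in each direction and the members of 35 gene lists, where a list member past 3-fold was named by preference. A few genes that this rule selects are not reported here. Members and lists were chosen with earlier results of these data known, and the chromosome medians and the Ly6 and keratin summaries after these values were seen. The call rule was tested on data simulated from the ES array, with known folds given to brighter probes. The ES detection limit was used for the simulated array. Changes in dim probes and unequal detection limits were therefore not covered. Alternatives were quantile normalization, median centring, normexp with an offset of 50 (limma 3.58.1 in R 4.3.3), the series table, other filters, 2-fold and 5-fold thresholds, and averaging a gene's probes. Analyses used Python 3.11.15 with pandas 2.3.3 and numpy 2.4.6. With 1 array per condition no interval could be given, and the number of arrays limits the precision.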

Additional observations from a re-analysis of the deposited data

How the results depend on the processing

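No paired analysis was possible because there was only 1 array for a condition. The counts given are probes higher and lower in EHe, first as measured and then with dim signals at the detection limit. Normexp gave 231 and 393 by both rules. Probes well above background on both arrays gave 533 and 540, by construction the same by both rules, against 920 and 1626 as measured and 827 lower at the limit. Averaging probes into genes gave 413 and 888 as measured and 346 and 461 at the limit. A 2-fold threshold gave 2356 and 3337, then 2265 and 2316, and a 5-fold threshold 386 and 637, then 224 and 263. Quantile normalization, median centring, no filter and the series table kept every count within 1.5 times. The median difference of all probes was 0.021 after median centring and 0.14 with no filter, against -0.10, and moved by less than the spot SD of 0.10 otherwise. Median centring moved the median of all genes from -0.16 to -0.04, so list and chromosome medians shift by the same 0.12. Between scalings the medians of naive pluripotency, Polycomb, glycolysis and hypoxia, interferon, extracellular matrix, ribosomal protein and Hox genes changed sign. All 40 leading genes stayed over 3-fold and in their direction under quantile normalization, median centring, normexp and the mean of a gene's probes. On X, 45 genes were higher as reported and 18 after normexp. Chromosome medians under the alternatives were added after seeing the data. The detection limit was higher on the EHe array, so a fall of a dim gene is bounded more weakly than a rise.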
